A study of Drosophila melanogaster with 2 samples.

Results

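The 38 homeobox genes described here were chosen as a list of names, drawn up with earlier results of these data known. They are homeobox genes of Drosophila melanogaster outside the segmentation hierarchy and the Hox clusters, out of 13968 protein-coding genes on the chromosome arms. Binding of Krüppel (Kr) near them was measured by ChIP-seq, in which DNA fragments precipitated with a protein are sequenced and their pile-ups called as peaks. The material was whole embryos, male and female pooled, aged 0 to 10 h, from a single transgenic line in which GFP was joined to the C terminus of Kr. An antibody to GFP was used, so the tagged protein was precipitated. Whether it was made from the Kr locus or from an extra copy is not settled by the labels, and binding by any untagged Kr was not measured. The series had 1 group with 2 biological replicates, numbered 2 and 3, so no comparison between conditions was possible and no test between groups was run. In whole embryos, binding in few cells and weak binding in many cannot be told apart.

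Homeobox genes encode transcription factors that bind DNA through a homeodomain. Kr is a zinc-finger factor, acting mainly as a repressor, that positions body segments as a gap gene and is used again in neuroblasts, muscle founders and other tissues. The genes described here mostly act after segmentation, in neurons, glia, muscle, gut, head and appendages. They were grouped by the class of their homeodomain into 10 paired-like (PRD) genes, 12 of the Antennapedia and NK classes, 4 LIM, 2 zinc-finger, 5 TALE, 2 of the sine oculis class, 1 CUT and 2 POU genes.

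Peaks came from the authors' list thresholded by irreproducible discovery rate (IDR), which held 2102 peaks on the dm6 genome and was made from both replicates. Those 2102 peaks were exactly the highest of the 30000 peaks called permissively on the pooled reads. A gene was called occupied when the summit of an IDR peak lay in its body or within 5 kb. Peak height is the authors' signal value, whose scale is not given in the sources used here, and rank 1 is the highest peak. Replicate signals were used as given, and the median ratio of replicate 2 to replicate 3 was 1.46 over IDR summits. An SD over the replicates includes this offset, so the SDs do not rank peaks by reproducibility. The files hold peaks and no read counts, so sequencing depth is unknown, and intervals cover counting error only. Coordinates are dm6 and start at 1.

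Kr summits were found at 15 of the 38 homeobox genes, and these genes held 29 of the 2102 IDR summits. Sequence at 7 of the 29 is printed here to show the bound DNA at the strongest peaks and at those with the Kr core word AAGGGTT. Each window reaches 100 bp to either side of the summit, holds no annotated exon and is read on the plus strand from RefSeq's dm6 sequence. The 3 below are the highest peaks that lacked the word and whose windows hold no exon, and the capital marks the summit base.

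zfh2, rank 16, chr4:497805-498005: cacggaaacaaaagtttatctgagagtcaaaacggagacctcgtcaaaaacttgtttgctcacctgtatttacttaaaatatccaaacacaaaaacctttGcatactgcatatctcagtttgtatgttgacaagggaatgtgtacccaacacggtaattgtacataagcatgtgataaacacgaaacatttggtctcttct
caup, rank 350, chr3L:12606367-12606567: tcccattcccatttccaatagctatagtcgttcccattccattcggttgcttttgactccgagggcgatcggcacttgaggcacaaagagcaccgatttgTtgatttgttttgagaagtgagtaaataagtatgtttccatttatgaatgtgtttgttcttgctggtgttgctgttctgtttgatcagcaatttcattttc
Ptx1, rank 383, chr3R:30919050-30919250: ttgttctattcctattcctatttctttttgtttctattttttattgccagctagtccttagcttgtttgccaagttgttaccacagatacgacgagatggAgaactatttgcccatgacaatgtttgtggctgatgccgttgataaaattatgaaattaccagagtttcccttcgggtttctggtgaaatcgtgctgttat

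The next 4 are all the windows that carried AAGGGTT or its reverse complement AACCCTT, which stand in capitals.

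Ptx1, rank 814, chr3R:30931270-30931470: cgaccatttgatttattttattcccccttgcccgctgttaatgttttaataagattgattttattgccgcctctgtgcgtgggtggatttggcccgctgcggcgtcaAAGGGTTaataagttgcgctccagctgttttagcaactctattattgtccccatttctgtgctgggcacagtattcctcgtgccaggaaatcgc
Ptx1, rank 927, chr3R:30920785-30920985: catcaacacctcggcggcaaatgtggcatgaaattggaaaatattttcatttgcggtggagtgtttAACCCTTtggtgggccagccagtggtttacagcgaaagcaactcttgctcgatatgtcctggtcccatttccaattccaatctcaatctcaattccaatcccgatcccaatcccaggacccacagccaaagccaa
OdsH, rank 1071, chrX:17812262-17812462: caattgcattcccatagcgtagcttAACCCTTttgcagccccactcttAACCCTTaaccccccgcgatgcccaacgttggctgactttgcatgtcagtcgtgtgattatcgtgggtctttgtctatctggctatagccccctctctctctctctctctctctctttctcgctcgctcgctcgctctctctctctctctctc
ro, rank 1995, chr3R:26885457-26885657: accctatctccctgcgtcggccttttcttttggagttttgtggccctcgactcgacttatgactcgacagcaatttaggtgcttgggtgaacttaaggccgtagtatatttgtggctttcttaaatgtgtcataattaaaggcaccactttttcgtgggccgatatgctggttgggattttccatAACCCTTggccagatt

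In the window at OdsH the word occurred 2 times, and in the other 3 windows once. In the Ptx1 window of rank 814 the middle of the word lay 10 bp from the summit. In the windows of rank 927, 1071 and 1995 the middle of the nearest word lay 31, 49 and 88 bp from the summit.

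The share of occupied genes was 39.5% of the homeobox genes (15 of 38, Wilson 95% interval 25.6 to 55.3) beside 18.0% of all protein-coding genes (2516 of 13968). The homeobox genes are long, with a median of 13758 bp against 2165 bp over all genes, and long genes offer more room for summits. All protein-coding genes were therefore split into 10 classes of length. When each homeobox gene was given the share occupied among the other genes of its class, the shares added up to 10.9 of 38. Of the 19 homeobox genes in the longest class (14719 bp and over), 10 were occupied, beside 37.0% of 1377 other genes in that class. In the class of 6477 to 14711 bp the count was 3 of 8, beside 25.1% of 1389. The count of 15 thus stood above the value set by length, by 4.08 genes. With a flank of 10 kb the same 15 genes stood beside 13.8 from length, a surplus of 1.20 genes. The 10.9 from length are 28.7% of 38, within the Wilson interval of 25.6 to 55.3. No test of this difference was run, and the list was chosen with earlier results known.

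Set apart by height, the peaks gave different surpluses over length, a difference that was not tested. Among the 1051 highest IDR peaks, 7 homeobox genes were occupied (18.4%), against 6.66 from gene length and 10.2% of all genes. Among the 1051 lower IDR peaks, 11 were occupied, against 7.28 from length and 10.9% of all genes. By the gene of the nearest transcription start site (TSS) in place of the 5 kb window, 11 of 38 were called, with 7.15 from length and 8.90% of all genes. With 2 or more summits there were 8 genes, against 4.73 from length and 5.23% of all genes. The median signal of the 29 summits was 124, below the 133 of all IDR summits.

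**Figure D1:**
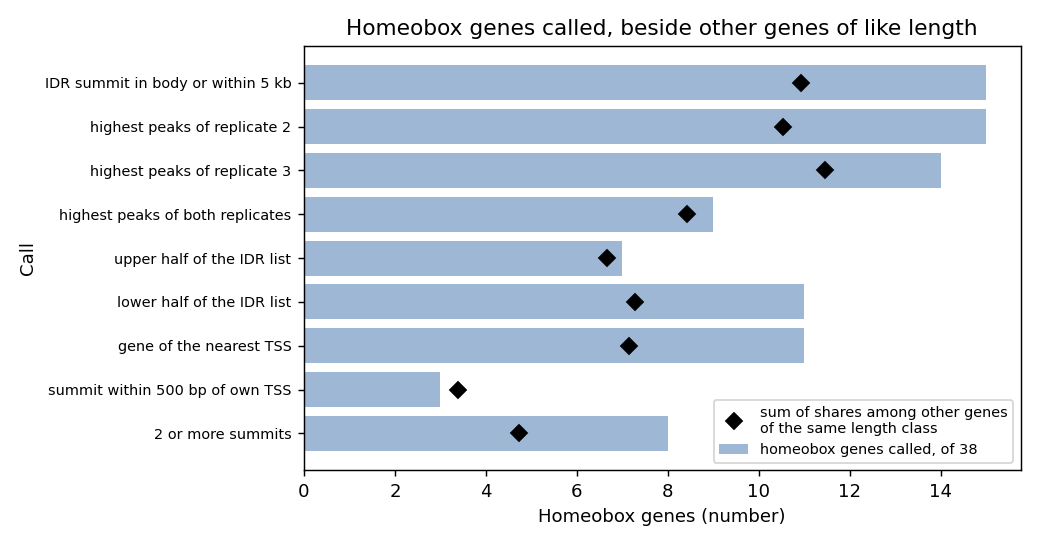
Number of the 38 homeobox genes called (bars, x axis) under each call (y axis), with the sum of the shares called among other genes of the same length class (diamonds). The bar passes the diamond for the IDR list, 15 against 10.9, and nearly meets it for the 1051 highest IDR peaks, 7 against 6.66.

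Each replicate alone gave a similar count from partly different genes. In the 2102 highest peaks of replicate 2, 15 homeobox genes were occupied (39.5%, beside 16.7% of all genes and 10.5 from length). In those of replicate 3, 14 were occupied (36.8%, beside 19.2% of all genes and 11.5 from length). The 9 genes occupied in both were Gsc, otp, Ptx1, Lim3, zfh1, zfh2, caup, mirr and Six4, against 8.41 from length and 12.7% of all genes. Of the 15 genes occupied in the IDR list, Dll, NK7.1, ro and tup had 0 summits in the highest peaks of replicate 3, and OdsH and E5 had 0 in those of replicate 2. In turn repo and HGTX had a summit in replicate 2 alone, and B-H2, btn and Awh in replicate 3 alone.

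**Figure D2:**
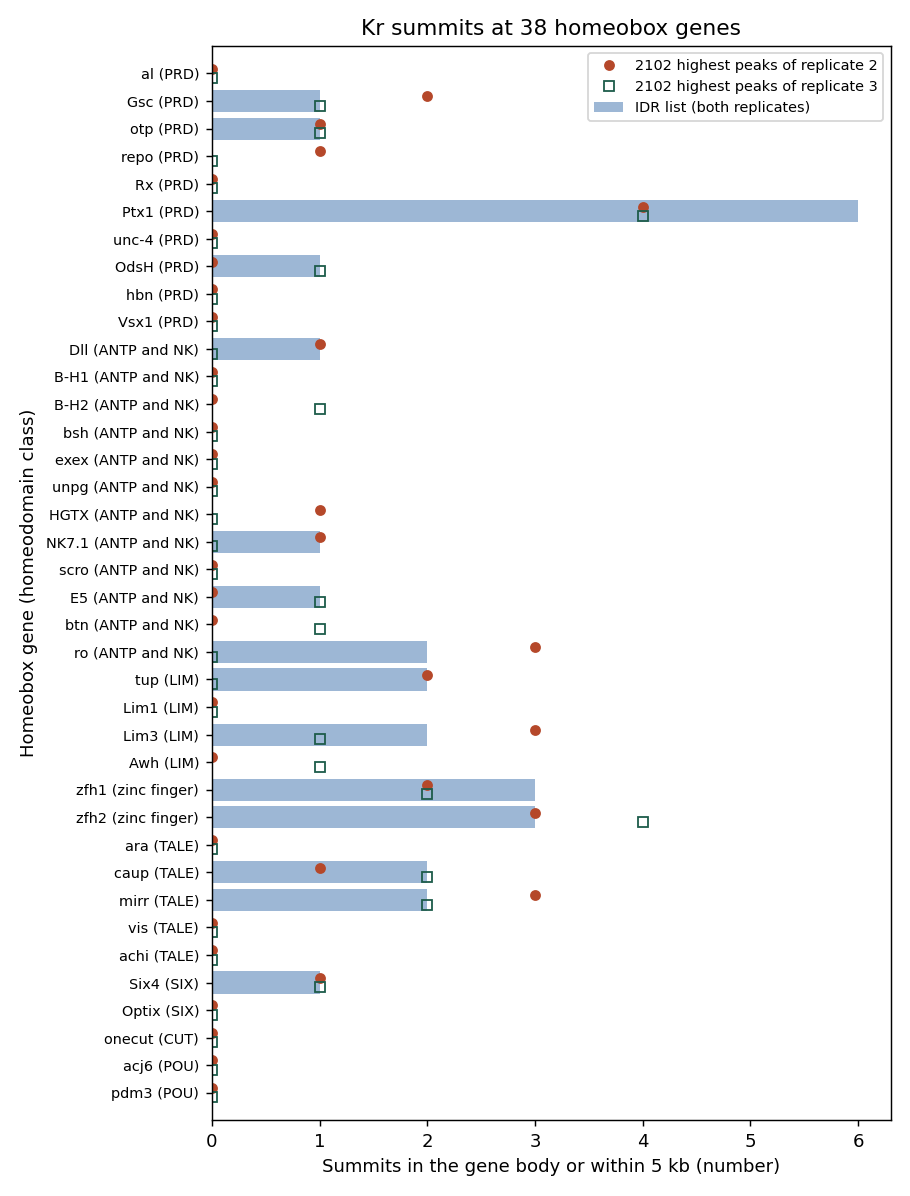
Number of summits in the body or within 5 kb (x axis) of each of the 38 homeobox genes (y axis, with homeodomain class): bars for the IDR list, filled circles for the 2102 highest peaks of replicate 2, open squares for those of replicate 3. Ptx1 leads with 6 IDR summits and 4 in each replicate, and 23 genes have no bar.

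Binding reached far higher at one gene than at the others. The gene zfh2, which encodes a large factor with zinc fingers and homeodomains that acts in the nervous system and in proximal wing and leg, had the highest peak (chromosome 4, 497747 to 498040; gene FBgn0004607, 501810 to 540874). The peak was intergenic, 3905 bp upstream of the zfh2 TSS, and ranked 16 of all IDR peaks with a signal of 570. Its signal was 332 in replicate 2 and 238 in replicate 3, a mean of 285 ± 65.9 (SD, n = 2), and it ranked 15 and 21 in the replicates' own lists. Both replicates thus placed it near the top. The other peaks, both in introns of zfh2, ranked 575 (115 and 71.1 in replicates 2 and 3) and 1276 (80.6 and 52.0). Chromosome 4 held 11 IDR peaks, and 7 of its 80 genes (8.75%) were occupied. The 3 summits at zfh2 were thus 3 of the 11.

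The other zinc-finger gene, zfh1, encodes a repressor with roles in mesoderm, heart and motor neurons. It also had 3 summits, all in the lower part of the list (ranks 1274, 1470 and 1511). They lay in an intron, in intergenic sequence 4629 bp upstream of the TSS, and in another intron. Replicates 2 and 3 gave 69.8 and 60.6 at the first, 57.8 and 57.2 at the second, and 82.3 and 39.1 at the third. Over all IDR summits the median ratio of replicate 2 to replicate 3 was 1.46, and the 3 ratios here were 1.15, 1.01 and 2.11. The second peak ranked 2939 and 1106 in the replicates' own lists and the third 1147 and 2966, so each was placed higher by a different replicate.

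Among the paired-like genes 4 of 10 were occupied, with 2.97 from gene length. Ptx1, the fly relative of vertebrate Pitx genes, had 6 summits, the most of any of the 38 genes. Over genes of all lengths, 81 protein-coding genes (0.580%) had 5 or more. Ptx1 is 17929 bp long and in the longest class, whose occupied genes had a median of 2 summits. The share with 5 or more in that class was not counted. The highest peak of Ptx1 (3R, 30918930 to 30919369) lay in an intron, 6396 bp downstream of the TSS, and ranked 383. It had 118 in replicate 2 and 76.0 in replicate 3 (mean 96.8 ± 29.4, SD, n = 2). Of the other 5, 3 lay in introns and 2 beyond the 3′ end of the gene, 18616 and 19581 bp from its TSS. At the peaks of rank 814, 1409 and 1916 the nearest TSS was that of CG15549, at 5137, 10230 and 4172 bp.

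The 6 peaks of Ptx1 did not behave alike in the replicates. The peak of rank 814, downstream of the gene and with the Kr word 10 bp from its summit, had 64.3 in replicate 2 and 88.1 in replicate 3. The intronic peak of rank 1409 had 100 and 25.5, a ratio of 3.93 that was the largest of the 29 summits. The downstream peak of rank 1916 had 75.4 and 21.5. Its rank was 1466 in replicate 2 and 13034 in replicate 3, so it was a weak peak there. Ranks 927 and 1759 had 90.6 and 53.1, and 58.7 and 45.2.

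The gene otp (orthopedia), active in hindgut and brain, had the second-highest peak of the 38 genes (2R, 20884517 to 20884693, rank 195). Its signal was 117 in replicate 2 and 135 in replicate 3, a mean of 126 ± 12.8 (SD, n = 2). In the replicates' own lists the peak ranked 390 and 98. The summit lay in a coding exon of otp, 12972 bp from its TSS, and was 1 of 9 IDR summits in coding exons among 2102. The start site nearest to it was that of Cib2, at 4682 bp. The neighbours Rx and hbn, brain genes of the same cluster of paired-like genes on 2R, had no IDR summit. The highest pooled peak of Rx ranked 11379 of 30000, the lowest such rank of the 38 genes, and that of hbn ranked 2768.

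Goosecoid (Gsc), which patterns the foregut and the nerves of the gut, had 1 peak in an intron, 2807 bp from its TSS (2L, 585020 to 585459, rank 663). It had 103 in replicate 2 and 49.4 in replicate 3 (mean 76.1 ± 37.7, SD, n = 2). OdsH (Odysseus), known for a part in male sterility of species hybrids, had 1 intronic peak of rank 1071, with 54.2 and 67.8. That summit lay 21352 bp from the OdsH TSS and 7323 bp from the nearest TSS, that of CG12986. The neighbour and relative of OdsH, unc-4, a gene of neuron identity, had none. Of the remaining paired-like genes, the pooled list reached rank 2511 at repo, the master gene of glia, 3326 at al (aristaless, leg tip and antenna), 4092 at Vsx1 (optic lobe) and 6779 at unc-4.

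The Iroquois genes, TALE factors that act in the dorsal head, notum and wing veins, had IDR summits at caup and mirr and none at ara. The best peak of caup (3L, 12606247 to 12606686, rank 350) was intergenic, 3164 bp upstream of its TSS, in the interval between ara and caup. It had 144 in replicate 2 and 60.8 in replicate 3 (mean 102 ± 58.6, SD, n = 2). A further peak lay in the promoter, 54 bp from the caup TSS, and went the other way, with 37.5 and 71.7 (rank 1638). The 2 peaks of mirr were intronic, 2136 and 4037 bp from its TSS, with 71.1 and 53.9 at rank 1197 and 79.1 and 48.3 at rank 1320. At ara the highest pooled peak ranked 8773.

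The window of 5 kb missed most of the Iroquois complex. Between caup and mirr lie 71.8 kb, and 6 further IDR summits stood there, all intergenic and all more than 5 kb from either gene. They ranked 373, 734, 970, 1315, 1697 and 1966, and the highest (3L, 12684833 to 12684992), 8746 bp upstream of mirr, had 141 in replicate 2 and 52.7 in replicate 3. From ara to mirr, with 5 kb at each end (139578 bp), 10 IDR summits were counted. The gap of 73302 bp between the Bar genes B-H2 and B-H1, which specify sensory organs and photoreceptors, held 1 (rank 2090, 67.0 and 31.3). The 10 at the Iroquois complex include the 4 counted at caup and mirr. The gap of 57680 bp between zfh2 and onecut held no summit beyond those counted at the genes. Nor did the gaps from otp to Rx, Rx to hbn, unc-4 to OdsH and vis to achi. Gaps between other genes were not counted, so these numbers have no background beside them.

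The remaining TALE genes, vis and achi, are a tandem pair of near-identical sequence needed for sperm formation. Reads may be divided or lost between such copies, which was not tested here. Neither gene had an IDR summit. Both shared a best pooled peak of rank 5551 that had 49.7 in replicate 2 and no summit within 250 bp in replicate 3.

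Among the LIM genes, Lim3 and tup (the fly Islet gene), which together set motor neuron identity, were occupied, and Lim1 and Awh were not. The highest peak of Lim3 (2L, 19103288 to 19103727, rank 472) lay in an intron, 2767 bp from the nearest Lim3 TSS and 1464 bp from that of CG17344. It had 92.1 in replicate 2 and 90.2 in replicate 3, a mean of 91.2 ± 1.33 (SD, n = 2), with own ranks of 814 and 313. Its other peak (rank 726) overlapped it, with a summit 202 bp away, and both matched 1 peak of replicate 3. At tup both peaks were intronic, with 99.8 and 33.3 at rank 1901 and 68.0 and 34.2 at rank 2022. Both peaks of tup were higher in replicate 2, as were 1689 of 2079 IDR summits over all genes. The peak of rank 1901 ranked 639 in the list of replicate 2 and 4364 in that of replicate 3.

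Of the sine oculis class, Six4, which patterns mesoderm into muscle, fat body and gonad, was the shortest occupied gene at 3892 bp. Its peak lay in the promoter, 105 bp upstream of the TSS (3L, 20792662 to 20793101, rank 990), with 89.9 in replicate 2 and 50.3 in replicate 3 (mean 70.1 ± 28.0, SD, n = 2). Optix, the other gene of the class, needed in head and eye, had none, and its best pooled peak ranked 3775.

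Of the 12 Antennapedia- and NK-class genes, 4 were occupied, with 3.02 from gene length, and each by peaks of the lower 1051 alone. The gene ro (rough), which spaces photoreceptor founders in the eye, had peaks of rank 1260 and 1995. Both summits lay in an intron of the neighbouring T48, a gene of mesoderm invagination, with 86.7 and 36.3 at the first and 67.1 and 37.6 at the second. NK7.1 had 1 intronic peak of rank 1573 with 80.3 and 34.5, and its nearest TSS was that of Dnaaf5. Distal-less (Dll), the limb selector gene, had a promoter peak 132 bp from its TSS (rank 1850, 77.2 and 36.5). E5, a paralogue of empty spiracles, had an intergenic peak of rank 2072, with 35.6 in replicate 2 and 58.5 in replicate 3, the lowest peak of the 29. Of these 4 genes, E5 alone was higher in replicate 3, while most IDR summits over all genes were higher in replicate 2.

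**Figure D3:**
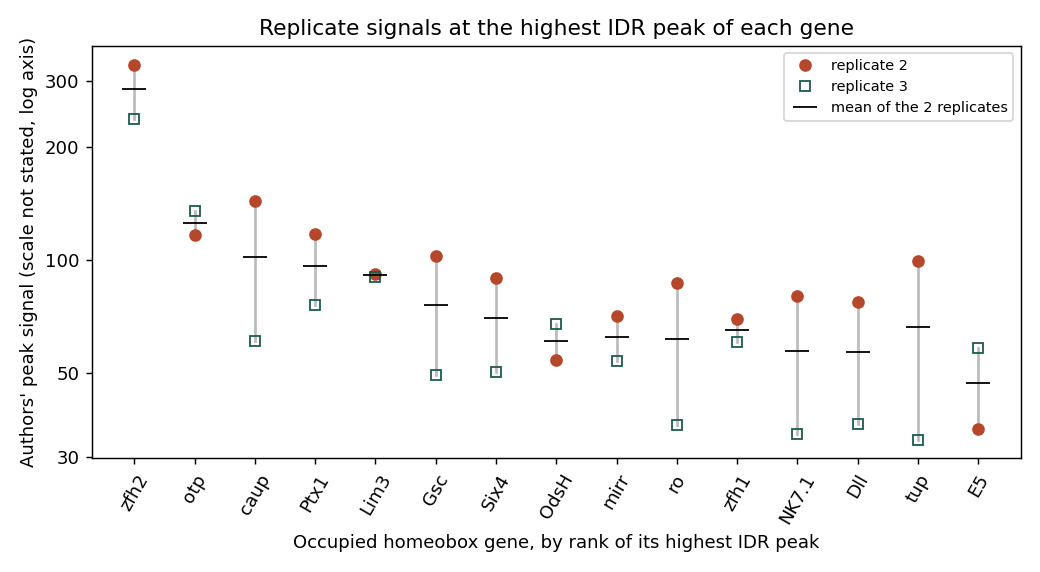
Authors' peak signal (y axis, log scale, scale of the values not stated) in replicate 2 (filled circles) and replicate 3 (open squares) at the highest IDR peak of the 15 occupied homeobox genes (x axis, by IDR rank), with the mean (black bar). The 2 values at zfh2, 332 and 238, exceed every other value, and those at tup, 99.8 and 33.3, lie far apart.

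No IDR summit was found at the remaining 23 genes. Their best peaks in the pooled permissive list ranked from 2256 to 11379 with a median of 4092, and 6 ranked under 3000. Closest below the list were HGTX (the fly Nkx6 gene of motor neurons, rank 2256, q = 0.00377), exex (the fly HB9 gene of motor neurons, rank 2334, q = 0.00407) and btn (buttonless, rank 2483, q = 0.00423). Just inside the list, the peak of E5 (rank 2072) had q = 0.00314 and the higher peak of tup (rank 1901) had q = 0.00289, all from the authors' lists. The 5 values span a narrow range across the edge of the list. Best pooled ranks were 2614 at Awh, 3088 at unpg, 3158 at Lim1, 4067 at pdm3, 4621 at bsh, 4909 at B-H1, 5172 at B-H2, 6635 at onecut, 7608 at acj6 and 9049 at scro.

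The POU genes acj6 and pdm3, which choose odorant receptors in olfactory neurons, are 28826 and 68791 bp long, and pdm3 is the longest of the 38. The permissive lists of replicates 2 and 3 held 11 and 7 summits at acj6, and 13 and 8 at pdm3. The gene scro (scarecrow, the fly Nkx2.1 gene of pharynx and brain) is 33875 bp long and stood apart, with 0 summits in the list of replicate 2, 5 in that of replicate 3 and 1 in the pooled list. Of 1377 other genes in the longest class, 13.3% had 1 pooled summit or none.

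The permissive lists of 30000 peaks each hold background beside bound sites, with q up to 0.763 in the pooled list, and they include the IDR peaks. Summits per gene in them are therefore not counts of Kr sites. In the longest class, the median homeobox gene had 17 summits in the permissive list of replicate 2 and 14 in that of replicate 3, beside 8 and 8 for the other genes. In the class of 6477 to 14711 bp the medians were 12 and 12.5, beside 4 and 4. IDR summits numbered 2.86 per 100 kb of the homeobox genes with their 5 kb flanks (29 in 1015 kb, exact Poisson 95% interval 1.91 to 4.10). Over all protein-coding genes with flanks the density was 1.65 (1.58 to 1.73), and over other genes of the longest class 1.55 (1.46 to 1.65). That class reaches 1965857 bp, while the longest homeobox gene has 68791 bp, so these densities are not matched for length. The Poisson intervals also treat summits as independent. With 6 of them at Ptx1 and an overlapping pair at Lim3, the interval for the homeobox genes may be too narrow.

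Other homeobox genes were counted in the same way, in lists of names also drawn up with earlier results known. Of 59 such genes, 30 were occupied (50.8%), with 15.3 from gene length, at a density of 3.75 per 100 kb (2.88 to 4.80). By list, 6 of 8 homeotic genes were occupied (2.84 from length) and 9 of 15 segmentation and cofactor genes (3.22). In the NK cluster 2 of 6 were occupied (1.37 from length), and 1 of 3 column genes of the neuroectoderm (0.763). The further POU genes gave 2 of 3 (0.946), and further genes of the sine oculis and Pax families 2 of 5 (1.57). Of the others, 8 of 19 were occupied (4.64 from length). The intervals of density overlap, and the difference between 15 of 38 and 30 of 59 was not tested.

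Summits at the homeobox genes were mostly intronic and seldom at promoters. Of the 29, 19 lay in introns (65.5%, Wilson 95% interval 47.3 to 80.1), 6 in intergenic sequence, 3 within 500 bp of a TSS (10.3%, 3.58 to 26.4) and 1 in a coding exon. Of all IDR summits, 41.2% lay in introns and 28.9% within 500 bp of a TSS. The long bodies and the window of 5 kb favour introns, so genes of the longest class are the closer comparison. There 16 of 22 summits at homeobox genes lay in introns and 1 at a promoter, beside 64.9% and 25.4% of 1067 summits at other genes. The intronic share was thus near that of long genes. At the other homeobox genes 54.0% of 63 summits lay in introns and 23.8% at promoters. That promoter share is within the interval of 3.58 to 26.4 given above, and the promoter difference was not tested. Introns of any gene were counted, among them those of T48 beside ro.

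**Figure D4:**
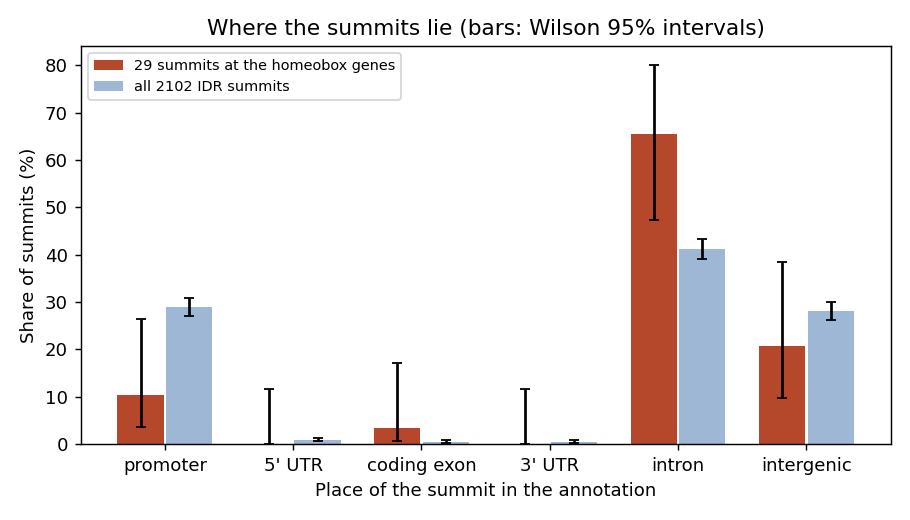
Share of summits (y axis, %) in each kind of annotated sequence (x axis) for the 29 summits at the homeobox genes and for all 2102 IDR summits, with Wilson 95% intervals as error bars. The promoter bar is 10.3% against 28.9%, and the intron bar 65.5% against 41.2%.

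Each of the 3 promoter summits lay at the TSS of the homeobox gene itself, at Six4, caup and Dll. Those 3 of 38 genes (7.89%) stood beside 3.39 from gene length and 4.93% of all genes. From the nearest TSS of their own gene the 29 summits lay 54 to 21352 bp away, with a median of 4037 bp, and 23 lay more than 2000 bp away. For 19 of the 29 the nearest TSS of any protein-coding gene was that of a listed homeobox gene, and 18 lay within the body of the homeobox gene.

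**Figure D5:**
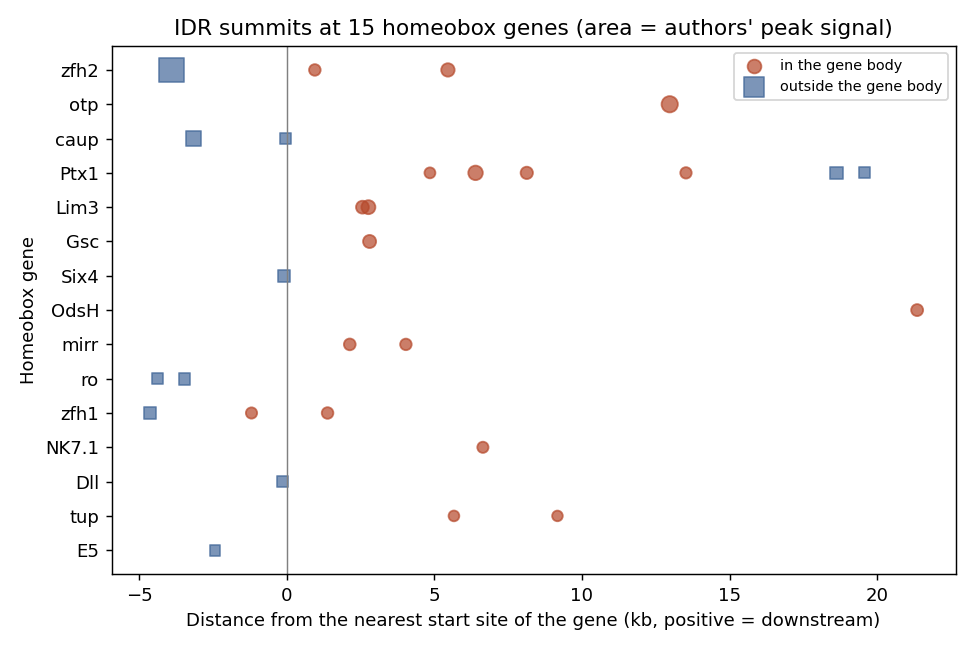
Position of the 29 IDR summits (x axis, kb from the nearest start site of the gene, positive downstream) at the 15 occupied genes (y axis), with circles in the gene body, squares outside it, and area in proportion to the authors' signal. The large square at zfh2 lies 3905 bp upstream, and the summits of Ptx1 run from 4851 to 19581 bp downstream.

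The Kr core word AAGGGTT, sought on both strands within 100 bp of the summit, was present at 4 of the 29 summits (13.8%, Wilson 95% interval 5.50 to 30.6). They were the 4 windows printed above, at Ptx1, OdsH and ro. Over all IDR summits the share was 12.5%, and in windows 1 kb to either side 2.15%. The 5 highest summits, at zfh2, otp, caup, Ptx1 and Lim3, all lacked it, as did most IDR summits. Among the 1051 highest IDR peaks the word was at 2 of 11 summits of homeobox genes (18.2%), beside 13.7% of all. Among the lower 1051 it was at 2 of 18 (11.1%), beside 11.3% of all. The related word ACGGGTT occurred at 1 summit (3.45%, at zfh1), beside 1.62% of all and 0.874% of the windows to either side.

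Some words of other factors were looked up after results were known. The word CAGGTAG, bound by Zelda, an activator of the early zygotic genome, occurred at 0 of the 29 summits, which allows a share of up to 10.3%, beside 3.28% of all IDR summits. The repeat GAGAGAG, bound by GAGA factor, occurred at 2 (6.90%, OdsH and caup), beside 9.37%. The word TATCGAT, common at housekeeping promoters, occurred at 0, beside 3.38%. The limit of 10.3% lies above both of these shares of all summits, so fewer such words at the homeobox genes could not be detected with 29 summits. The median GC content of the windows was 48.3% at the homeobox genes, 43.8% at all IDR summits and 41.8% in windows to either side.

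Every one of the 29 summits had a summit within 250 bp in the permissive lists of both replicates, as had 98.9% of all IDR summits. The IDR list was made from these replicates and each permissive list holds 30000 peaks. Such matches were therefore nearly given, and are no separate evidence of reproducibility. In each replicate's own ranking, 14 of the 29 (48.3%, Wilson 95% interval 31.4 to 65.6) fell within its first 2102 peaks in both cases, beside 53.9% of all. Signals were higher in replicate 2 at 23 of the 29, beside 1689 of 2079 over all IDR summits matched in both. The median ratio of replicate 2 to replicate 3 was 1.62, with single ratios from 0.523 to 3.93, beside 1.46 over all IDR summits. Spearman's rho between replicates was 0.11 over the 29 summits, and 0.35 over 2079 IDR summits matched in both. The points share their libraries, and all were selected for high pooled signal, so rho is a description only.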

How the data were processed

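Kr ChIP-seq peaks of 2 biological replicates (1 group) were used. Per the deposited text lists of files, the authors called permissive peak lists on each replicate and on the pooled reads against a control, and made an IDR list, all for dm6. No source used here names the aligner, the peak caller or the IDR threshold. The authors' lists hold 2 values a peak, a signal value of unstated scale and, by the narrowPeak format, a −log10 q-value. The dm3 lists were not used here. Dm6 chromosome lengths contained all peaks and genes. Genes came from Ensembl release 115 (BDGP6, dm6), and sequence from RefSeq's dm6 assembly.

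Summits were assigned to genes within 5 kb, replicates matched within 250 bp (nearest summit), promoters set at 500 bp from a TSS of a protein-coding gene, and words sought within 100 bp. Other places were, in order, 5′ UTR, coding exon, 3′ UTR, intron and intergenic. Length classes were deciles of all protein-coding genes, with the homeobox genes left out of each share. Wilson and Poisson intervals are at 95%. Every gene was named. Full values were given where the highest peak was among the 1051 highest. Of up to 6 windows with the word, 4 qualified. The 3 windows without it and the other factors' words were chosen after their values were seen. Members, lists and settings were chosen with earlier results of these data known. Scripts (Python 3.11.15, numpy 2.4.6, scipy 1.17.1) were tested on simulated data. Alternatives were other flanks, match distances, word windows, the 1051 highest peaks and each replicate alone.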

Additional observations from a re-analysis of the deposited data

How the results depend on the processing

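Leaving out replicate 2 or 3 gave 14 and 15 occupied genes, of which 11 and 13 were among the 15. Without a flank, 10 genes were occupied, by 18 summits, with 6.61 from gene length and 5.51% of all genes. With a flank of 2 kb, 12.0% of all genes were occupied and 13 homeobox genes, with 8.91 from length. With 10 kb, 27.1% of all genes and the same 15 homeobox genes were occupied, with 13.8 from length, so the surplus over length was 1.20 genes there. Among the 1051 highest peaks, 7 genes were occupied by 11 summits, with 6.66 from length and 10.2% of all genes. A match distance of 100 bp left 82.8% of summits matched in both replicates. The word's share ranged from 6.90% to 18.2% over all settings tried. Merging overlapping peaks, an alternative chosen after seeing the data, left 28 regions. Of the comparisons of a total count, share or median ratio with an alternative, 27 stayed within 1.5 times, the interval or 1 SD, and 10 moved, each given above. Summit counts of single genes stayed in 130 comparisons and moved in 22, among them ro and tup, each 2 to 0 without replicate 2. The 130 include every count of 0 that stayed 0, as most did at the 23 genes without an IDR summit. They therefore overstate how stable the counts of occupied genes were. Depth is unknown, so a gene without a summit may be bound below detection, and 2 replicates limit every SD. No paired analysis was possible because there was 1 group.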
